A study of Danio rerio with 12 samples.

Results

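Chromatin accessibility was compared between endothelial cells with and without activity of a sele reporter. The comparison set the ATAC-seq peak list of cells positive for kdrl:mCherry and sele:GFP (double positive) against that of cells positive for kdrl:mCherry and negative for sele:GFP (mCherry only). All peaks on the 25 numbered chromosomes of the danRer7 zebrafish genome build were used, and an overlap of 1 bp was enough for peaks to count as shared. The double positive list held 90687 peaks and the mCherry only list 134260, together 224947 of the 529593 peaks in the 4 lists of the study.

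Both fractions were sorted from whole wild-type embryos at 72 hours post fertilisation that carried both transgenes and received no treatment. Each fraction had 3 samples, prepared from 12000 to 50000 cells each, and 1 pooled peak list stood for all 3. The remaining 2 lists came from cells of the same embryos with GFP but no mCherry (GFP only, 138364 peaks) and with neither reporter (double negative, 166282 peaks), and served here as context. With 1 list per fraction there is no replicate check of any difference below, and p-values are not given. No annotation of danRer7 was used here, so regions are given by position and the endothelial identity of the fractions was not checked against marker genes. In a bulk sort, a region that is less open in every cell cannot be told apart from one that is open in fewer of the cells.

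ATAC-seq uses the transposase Tn5, which inserts sequencing adaptors preferentially where DNA is not wrapped in nucleosomes, so that promoters and enhancers in use stand out as peaks of reads. The product of kdrl is a receptor that binds vascular endothelial growth factor, and its regulatory sequences drive transgenes throughout the vascular endothelium. The gene sele encodes E-selectin, an adhesion molecule that endothelial cells present to passing blood cells. In zebrafish embryos of this age, blood stem cells lodge in a venous plexus of the tail, the caudal haematopoietic tissue, whose endothelial cells wrap around them and form a niche. The series concerns such vascular niches, and the comparison asks which regions differ between sele:GFP endothelium and the other endothelium.

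Peaks were described by their deposited values, which are the authors' own. Fold is the enrichment of reads at the summit, the highest point of a peak, over the background expected there. Height divides the reads at a summit, recovered from the fold and its p-value, by the smallest background expected at any summit of that list. This smallest value is called the genome-wide background here. Whether it equals the background used in peak calling was not tested. That background was 3.63 reads for double positive and 4.46 reads for mCherry only, a ratio of 0.814. Whether the double positive list was also sequenced less deeply was not tested. Called summits had at least 10 reads in double positive and 11 reads in mCherry only, equal to heights of 2.75 and 2.47. The most reads at any summit were 371 in double positive, 370 in mCherry only, 369 in GFP only and 365 in double negative, a near-common ceiling in lists of unequal background. Intervals given below cover counting error only. For regions and peaks ranked by ratio, fold or reads they make no allowance for the ranking, which favours extreme values.

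Most double positive peaks had a partner in mCherry only, whereas the reverse share was smaller. Peaks without a partner in mCherry only are called gained, and numbered 13701 of the 90687 in double positive (15.1%, Wilson 95% interval 14.9 to 15.3). Of the 134260 mCherry only peaks, 58256 (43.4%, 43.1 to 43.7) had no partner in double positive and are called lost. Merging overlapping peaks of both lists gave 147144 regions, of which 75187 (51.1%) were shared. In 72681 shared regions each list had exactly 1 peak. A further 1764 regions held more than 1 double positive peak, and 811 held more than 1 mCherry only peak.

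The lost share was also the larger one among taller peaks and under stricter sharing. Among peaks of height 10 or more the shares were 1.55% gained (1.42 to 1.70, 470 of 30241 peaks) and 5.61% lost (5.37 to 5.85, 2054 of 36645 peaks). With reciprocal overlap of 50%, a stricter rule of sharing, 26.2% were gained and 50.2% lost. The lists differ in length, and with the mCherry only list shortened to the same number of peaks the shares were 26.2% and 27.6%. Equal length brings the shares together by construction, since nearly all shared regions hold 1 peak of each list, so these values do not show what set the excess.

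Gained and lost regions were mainly low peaks. Gained peaks had a median height of 4.41 (quartiles 3.86 and 5.51) and a median of 16 reads, against a height of 7.99 (5.23 and 14.0) and 29 reads for shared double positive peaks. Lost peaks had a median height of 4.49 (3.81 and 5.83) and 20 reads, against 9.20 (6.06 and 14.8) and 41 reads for shared mCherry only peaks. At heights from 2 to 4, 46.7% of double positive peaks were gained and 81.9% of mCherry only peaks were lost. From height 6 to 8 the shares were 10.3% and 40.4%, and from 10 to 15 they were 2.93% and 10.4%. From height 20 upwards 0.259% of double positive peaks (0.178 to 0.376) were gained and 0.401% of mCherry only peaks (0.295 to 0.546) were lost.

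**Figure D1:**
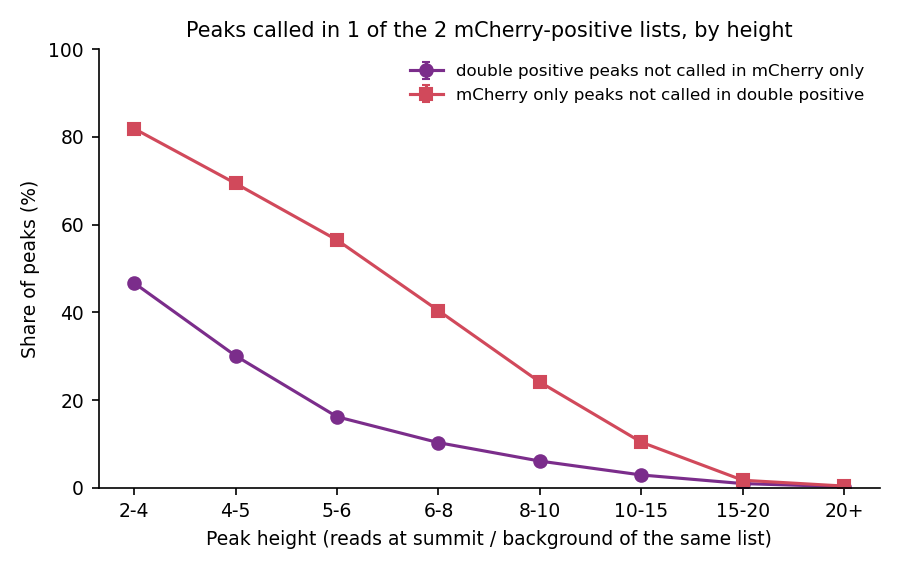
Share of double positive peaks not called in mCherry only (circles) and of mCherry only peaks not called in double positive (squares), in percent, by peak height; bars are Wilson 95% intervals, mostly smaller than the symbols. Both shares fall with height, from 46.7% and 81.9% at heights 2 to 4 to 0.259% and 0.401% from height 20 upwards.

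The few tall gained and lost peaks were peaks of low fold. The 27 gained peaks of height 20 or more had a median fold of 1.90, and the 40 lost peaks one of 1.76. Shared peaks of that height had a median fold of 10.1 in both lists. The gained peak with the most reads, on chromosome 24 from 16170270 to 16170471, had 223 reads (exact Poisson 95% interval 195 to 254) over an expected 115, a fold of 1.94. The lost peak with the most reads, on chromosome 20 from 55789788 to 55790220, had 225 reads (197 to 256) over an expected 179, a fold of 1.26. Another tall lost peak was found on chromosome 24 from 16181636 to 16181840, close to the leading gained one. It held 197 reads over an expected 131. All 27 gained and all 40 lost peaks of that height lay where the expected background was over 1.5 times the genome-wide one, as did 94.8% of shared double positive peaks of that height. The regions named next were ranked by fold.

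The leading regions called in 1 list only were also looked up in the mCherry-negative lists. The 10 gained peaks of highest fold lay on 10 chromosomes, with folds of 8.39 to 9.93 and 38 to 49 reads, and 7 of them were called in neither mCherry-negative list. That is close to the share of all 470 gained peaks of height 10 or more (69.1%, 64.8 to 73.2), while of all double positive peaks of that height 9.39% were in neither. The first, on chromosome 2 from 56671819 to 56672164, held 45 reads in double positive (32.8 to 60.2). The eighth, on chromosome 14 from 30734094 to 30734436, held 38 reads (26.9 to 52.2). It was 12.4 kb from a shared region whose height was 2-fold or more greater in double positive, the shortest such distance among the 10. That distance was 581 kb for the first and 3011 kb for the tenth, the longest. One of the 10, on chromosome 22 from 32222234 to 32222774, was called in all lists but mCherry only, with 40 reads in double positive, 23 in GFP only and 16 in double negative.

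All 10 lost peaks of highest fold were called in GFP only and in double negative as well, so that double positive was the 1 list without them. Of all 2054 lost peaks of height 10 or more, 58.1% (55.9 to 60.2) were in both mCherry-negative lists, as were 86.5% of all mCherry only peaks of that height. The 10 lay on 8 chromosomes, with folds of 10.7 to 12.6 and 58 to 74 reads in mCherry only. The first, on chromosome 17 from 44314249 to 44314749, held 68 reads in mCherry only (52.8 to 86.2), 34 in GFP only and 54 in double negative. The region from 31938686 to 31939291 on chromosome 10 had 61 reads in mCherry only (46.7 to 78.4), 21 in GFP only and 83 in double negative. On chromosome 9, that from 52532745 to 52533504 had 72 reads in mCherry only (56.3 to 90.7), 57 in GFP only and 39 in double negative. The nearest double positive peak to any of the 10 was 3365 bp away.

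Over all heights both gained and lost peaks were called in the mCherry-negative lists less often than peaks in general, and gained peaks least often. Lost peaks were called in double negative in 59.5% of cases (59.1 to 59.9) and in GFP only in 47.2% (46.8 to 47.6), against 72.1% and 65.7% of all mCherry only peaks. Gained peaks were called there in 31.8% (31.0 to 32.6) and 31.0% (30.3 to 31.8), against 74.3% and 72.5% of all double positive peaks. Counting from height 10 upwards, 58.1% of lost peaks (55.9 to 60.2) and 11.5% of gained peaks (8.91 to 14.7) were in both mCherry-negative lists. Shared peaks of that height were in both in 83.1% (double positive) and 88.2% (mCherry only) of cases. Gained and lost peaks were lower than shared ones and the lists differ in length, and the part of height and list length in these shares was not tested.

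Near the overlap limit the classes did not differ in height. The 238 double positive peaks that shared fewer than 50 bp with a single partner had a median height of 4.13, as had the 139 gained peaks less than 50 bp from a mCherry only peak. For mCherry only the corresponding counts were 273 and 177, both with a median height of 4.04. Most gained and lost peaks were far from the limit, since the median gap to the other list was 3293 bp for gained and 5664 bp for lost peaks.

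In shared regions the signal of the lists was close. Regions were kept when the geometric mean of both heights was 10 or more, so that neither list alone selected them, which left 30850. There the median height was 16.0 in double positive and 16.4 in mCherry only. The height ratio, double positive over mCherry only, had a median of 0.972 (order-statistic 95% interval 0.968 to 0.975; quartiles 0.826 and 1.14). That small deficit changed side with the setting: the median was 1.02 when regions were selected on double positive height, 0.904 when selected on mCherry only height, and 1.04 after centring on the median of all shared regions.

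The ratio rose with height from a geometric mean height of 5 upwards. Its median was 0.850 from 5 to 10 (33289 regions), 0.907 from 10 to 15 (14216 regions), 0.968 from 15 to 20 (7156 regions) and 1.02 from 20 upwards (9478 regions). At geometric mean heights of 2 to 5 (11048 regions) it was 1.0 (1.0 to 1.01). Shared regions had to be called in both lists, whose lowest heights were 2.75 and 2.47, which narrows the ratios possible in that group. Grouped by the geometric mean of reads, the median height ratio was 0.965 with 50 to 100 reads (17039 regions), 1.02 with 100 to 150, 1.05 with 150 to 200 and 1.16 with 200 or more (273 regions). The raw read ratio had a median of 0.786 in the first of these groups and 0.944 in the last. The lists end at nearly the same number of reads, and the part of that in the ratios of the tallest regions was not tested.

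Within this close match, 1016 regions of the 30850 (3.29%, 3.10 to 3.50) were 2-fold or more higher in double positive, and 715 (2.32%, 2.16 to 2.49) were 2-fold or more higher in mCherry only. At geometric mean heights of 20 or more the counts were 93 and 2 of 9478 regions. Below the height floor the balance was the reverse, with 1067 and 2885 of 33289 regions at heights of 5 to 10. Over all 75187 shared regions the counts were 2134 and 3668. The balance also rested on the scale: with the deposited fold in place of height the counts were 114 and 166. They were 1381 and 504 after centring, 1796 and 60 when regions were selected on double positive height, and 319 and 2677 when selected on mCherry only height. The direction of the excess was therefore not fixed by these data, and the description below is of the regions themselves.

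**Figure D2:**
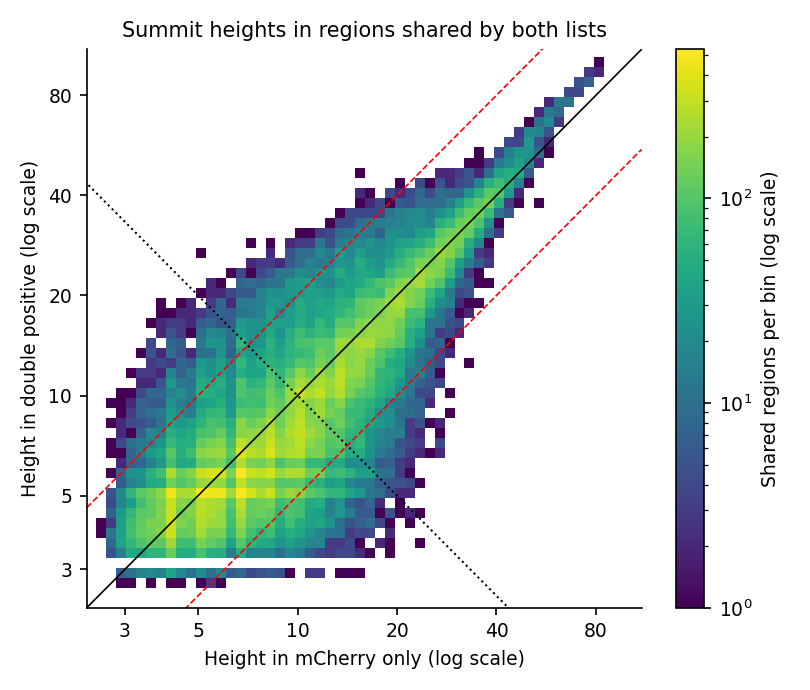
Height in double positive against height in mCherry only, both on log scales, for regions shared by both lists; colour is the number of regions per bin on a log scale. The solid line marks equal heights, dashed lines 2-fold differences and the dotted line a geometric mean height of 10, above which 1016 regions lie past the upper and 715 past the lower dashed line.

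The 10 shared regions with the highest ratio were mostly confined to the mCherry-positive lists. They had 72 to 106 reads in double positive and 22 to 37 in mCherry only, and 7 of the 10 were called in neither GFP only nor double negative, as were 6.26% of all 30850 regions. The first lay on chromosome 9 from 25530541 to 25531217. Its summits in the mCherry-positive lists were 137 bp apart. They had 95 reads in double positive and 23 in mCherry only, heights of 26.2 and 5.16. The ratio was 5.07 (exact 95% interval 3.19 to 8.38). The region from 19179527 to 19180284 on chromosome 20 had 81 and 24 reads, a ratio of 4.14 (2.60 to 6.84). On chromosome 13, that from 6779363 to 6779885 had 106 and 33 reads, a ratio of 3.94 (2.65 to 6.02). These 3 regions were absent from both mCherry-negative lists. Their deposited folds in double positive and mCherry only were 10.4 and 4.18, 7.93 and 4.58, and 9.37 and 5.09, in the order given. On that scale the regions just named on chromosomes 20 and 13 were less than 2-fold apart, while most of the 10 were more than 2-fold apart.

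The remaining 3 of the 10 were also open outside the mCherry gate. The region from 4735642 to 4736325 on chromosome 4 had 80 reads in double positive, 26 in mCherry only, 13 in GFP only and 21 in double negative. On chromosome 18, that from 3902386 to 3903174 had 83, 28, 19 and 36 reads in the same order. On chromosome 13, that from 34022720 to 34023498 had 106 reads in double positive, 37 in mCherry only and 59 in double negative, and was not called in GFP only. In each of the 3, double positive was the highest list.

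The 10 regions with the lowest ratio were called in all 4 lists, with double positive the lowest in each. They had 16 to 26 reads in double positive and 91 to 124 in mCherry only. The first lay on chromosome 23 from 92330 to 93043, with the double positive and mCherry only summits 156 bp apart. It held 16 reads in double positive, 105 in mCherry only, 102 in GFP only and 95 in double negative, a ratio of 0.187 (0.103 to 0.318). The region from 8697169 to 8697744 on chromosome 5 had 20, 102, 74 and 70 reads in the same order, a ratio of 0.241 (0.141 to 0.391). On chromosome 10, that from 32960784 to 32961464 had 24, 118, 76 and 51 reads, a ratio of 0.250 (0.154 to 0.390). By deposited fold all 10 were also more than 2-fold apart, the first at 2.64 in double positive and 9.72 in mCherry only. Presence in both mCherry-negative lists was common to shared regions of this height, at 86.6% (86.2 to 87.0) of all 30850.

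**Figure D3:**
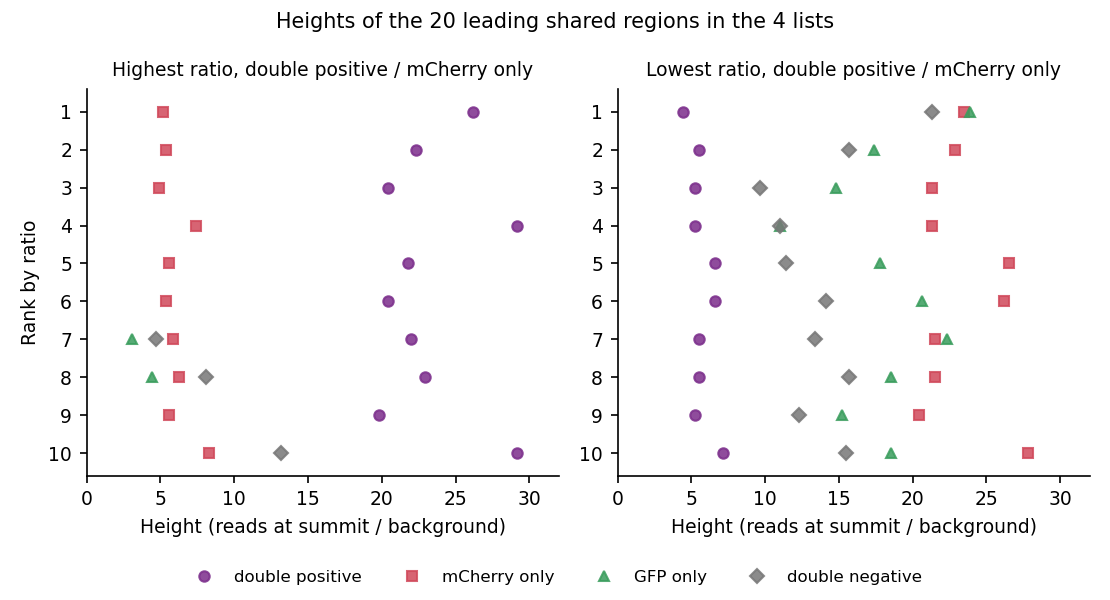
Height (summit reads divided by list background) in the 4 lists for the 10 shared regions with the highest (left) and the 10 with the lowest (right) ratio of double positive to mCherry only; a missing symbol means that the list had no peak there. On the left 7 regions carry no mCherry-negative symbol, and on the right all 4 symbols are present in each of the 10 regions with double positive lowest.

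Over all regions past 2-fold, those higher in double positive were in both mCherry-negative lists far less often than regions under 2-fold apart, and those higher in mCherry only slightly less often. Of the 1016 regions higher in double positive, 435 (42.8%, 39.8 to 45.9) were called in neither mCherry-negative list and 303 (29.8%, 27.1 to 32.7) in both. Of the 715 higher in mCherry only, 57 (7.97%, 6.20 to 10.2) were in neither and 599 (83.8%, 80.9 to 86.3) in both. Among the 29119 regions under 2-fold apart, 4.94% (4.70 to 5.20) were in neither and 88.7% in both. The mCherry-negative lists played no part in choosing the regions, but the groups differed in height. The median in mCherry only was 8.75 in regions higher in double positive and 16.4 in those under 2-fold apart. In double positive it was 20.7 and 16.0. At geometric mean heights of 20 or more, 19.4% (12.6 to 28.5) of the 93 regions higher in double positive were in neither list, against 1.13% of those under 2-fold apart. The part of height in these shares was not tested. The share in neither list among regions higher in double positive was 57 of 114 on the fold scale, 39.0% after centring, and 48.9% and 29.5% with regions selected on double positive and on mCherry only height. The corresponding shares among all regions were 6.26%, 6.26%, 8.44% and 5.39%.

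**Figure D4:**
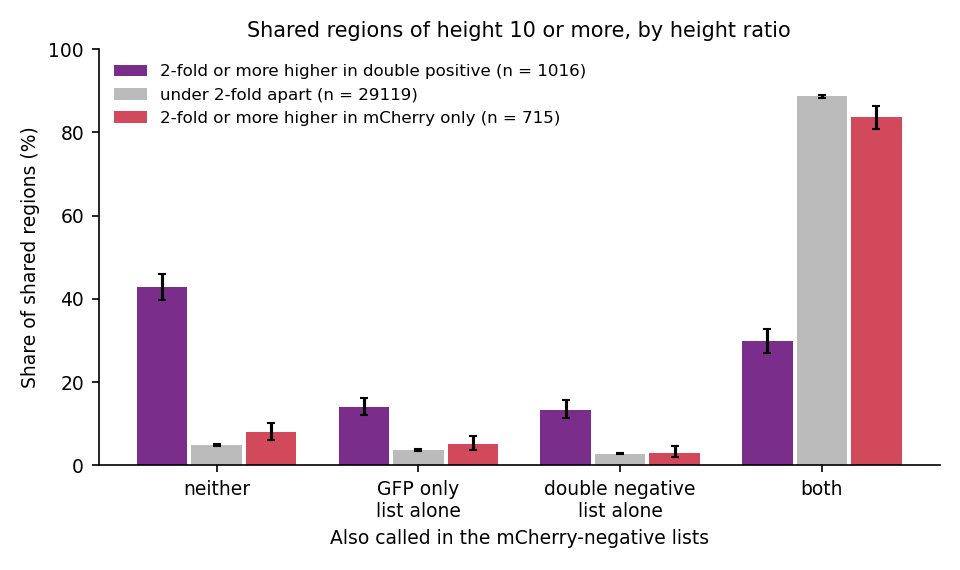
Share of shared regions of geometric mean height 10 or more, in percent, called in neither, 1 or both of the mCherry-negative lists, for regions 2-fold or more higher in double positive, under 2-fold apart, and 2-fold or more higher in mCherry only; bars are Wilson 95% intervals. Of regions higher in double positive 42.8% are in neither list, against 4.94% and 7.97% in the other groups.

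Read from the side of the mCherry-negative lists, regions in neither of them leaned to double positive on the height scale with selection on the geometric mean. These are the same 435 regions as above, set against another total. Of the 1931 regions in neither mCherry-negative list, 22.5% (20.7 to 24.4) were 2-fold or more higher in double positive, against 1.13% (1.01 to 1.27) of the 26722 regions in both. The shares higher in mCherry only were 2.95% (2.29 to 3.81) and 2.24% (2.07 to 2.43). At geometric mean heights of 15 or more, 21.1% of 492 regions in neither list and 0.875% of 15424 regions in both were higher in double positive. The corresponding shares higher in mCherry only were 0.203% and 0.357%.

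GFP only is the list of the other sele:GFP fraction. Regions it held without double negative were 2-fold or more higher in double positive about as often as the reverse set. Their median height ratio was lower than that of the reverse set from height 10 upwards, but not from height 20 upwards. Of the 1226 regions called in GFP only and not in double negative, 11.6% (9.91 to 13.5) were higher in double positive. Of the 971 regions called in double negative and not in GFP only, 14.0% (12.0 to 16.3) were, with overlapping intervals. At height 20 or more, GFP only held 69 of the 93 regions higher in double positive (74.2%, 64.5 to 82.0) and double negative 52 (55.9%, 45.8 to 65.6), against 98.0% and 96.8% of all regions of that height. A further set of 20381 regions was called in all 4 lists. Its geometric mean height was 10 or more both in the mCherry-positive pair and in the mCherry-negative pair of lists. There the log2 ratio of double positive to mCherry only and that of GFP only to double negative had a Pearson's r of 0.08 (Spearman's rho 0.08). These points share the libraries and the genome-wide scaling of each list.

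Where regions higher in double positive were present in all 4 lists, the mCherry-negative fractions were lower than in shared regions in general. In all 26722 shared regions of height 10 or more called in all 4 lists, the median height was 13.8 in GFP only and 14.8 in double negative. In the 303 regions higher in double positive it was 5.16 in GFP only and 5.82 in double negative. Over all 1016 regions, with or without a call in the mCherry-negative lists, it was 20.7 in double positive and 8.75 in mCherry only. In the 599 regions higher in mCherry only and present in all lists, the median height was 12.7 in GFP only and 12.5 in double negative. Over all 715, again with or without such a call, it was 18.2 in mCherry only and 7.43 in double positive.

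Shared peaks were narrower in double positive, and width followed height. In the 72681 regions with 1 peak of each list the median width was 387 bp in double positive and 455 bp in mCherry only, and the median ratio was 0.918 (0.916 to 0.920). The ratio was 0.854 at heights of 5 to 10 and 0.974 from 20 upwards. Where both heights were within 0.1 on the log2 scale and 10 or more (7070 regions), it was 0.960 (0.958 to 0.963). Such heights still meant fewer reads in double positive, whose background was lower. The part of read number in the widths was not tested. In regions 2-fold or more higher in double positive the peaks were wider there, at 573 bp against 469 bp, a ratio of 1.20 (1.18 to 1.22). In regions higher in mCherry only they measured 430 bp and 613 bp, a ratio of 0.720 (0.702 to 0.739). Gained peaks had a median width of 247 bp and lost peaks of 285 bp.

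Summits of the lists fell close together. The median distance between the double positive and the mCherry only summit was 24 bp, and 69.8% of pairs were within 50 bp. The distance was 62 bp at heights under 5 and 10 bp from 20 upwards. In regions 2-fold or more higher in double positive it was 25 bp, and in those higher in mCherry only 29 bp.

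Height ratios were alike between neighbours along the chromosome. For adjacent shared regions of height 10 or more, the log2 ratios had a Pearson's r of 0.45 at distances up to 2 kb (3419 pairs), 0.25 from 5 to 10 kb (4289 pairs), 0.14 from 20 to 50 kb (6521 pairs) and 0.04 from 100 to 1000 kb (3372 pairs). Among regions called in all 4 lists r was 0.41, 0.19, 0.12 and 0.02 at the same distances. Pairs are not independent, since they share the libraries and a region enters with its neighbour on either side.

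**Figure D5:**
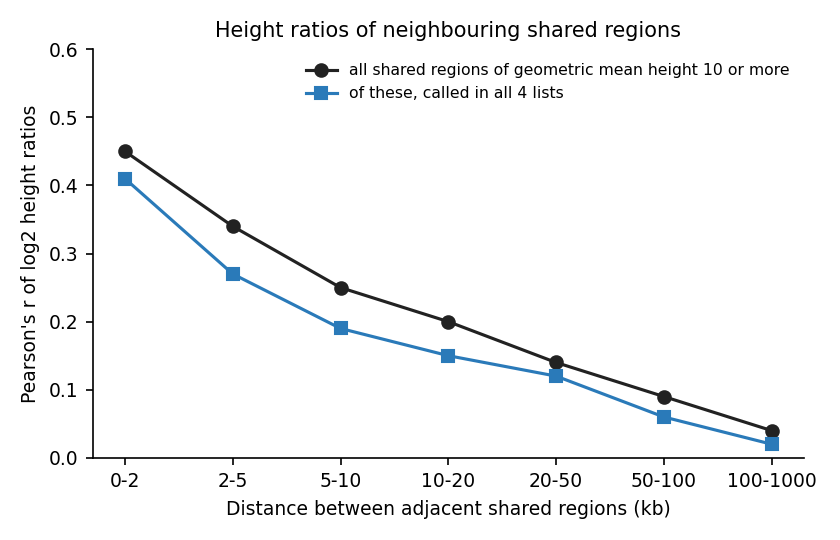
Pearson's r between the log2 height ratios (double positive over mCherry only) of adjacent shared regions of geometric mean height 10 or more, by the distance between their midpoints in kb, for all such regions and for those called in all 4 lists. The correlation falls from 0.45 within 2 kb to 0.04 beyond 100 kb.

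Regions higher in double positive had others of their kind nearby more often than shared regions in general, though most had none within 50 kb. Within 50 kb, 34.9% of them (32.1 to 37.9) had another region higher in double positive, as had 11.6% of all shared regions of height 10 or more. For regions higher in mCherry only, 16.5% (14.0 to 19.4) had another of that kind, as had 7.63% of all. A gained peak lay within 20 kb of 47.3% (44.3 to 50.4) of the regions higher in double positive, 33.0% (29.7 to 36.5) of those higher in mCherry only and 34.5% of all. A lost peak lay within 20 kb of 80.9% (78.4 to 83.2), 90.5% (88.1 to 92.4) and 79.4% in the same order.

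Chained over gaps of at most 50 kb, the 1016 regions higher in double positive formed 39 groups of 3 or more and 4 of 5 or more. The 715 higher in mCherry only formed 7 groups of 3 or more and none of 5 or more. The part of class size in these counts was not tested, and the groups are given for the height scale only. The largest group held 6 regions on chromosome 11 from 18828997 to 18937199, chosen for its size. Its highest member, from 18886419 to 18887052, had 123 reads in double positive and 55 in mCherry only and was called in neither other list. The member from 18936782 to 18937199 had the largest ratio of the group, 3.48, with 85 reads in double positive, 30 in mCherry only and 23 in GFP only. Of the 6 members 4 were in neither mCherry-negative list. The members were chosen for ratios of 2 or more, and the remaining 3 shared regions of height 10 or more within the span had ratios above 1.

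A compact group on chromosome 20 held 5 regions from 34001471 to 34011599, 10.1 kb in all, again chosen for its size. The first member, from 34001471 to 34001932, had 166 reads in double positive, 67 in mCherry only, 52 in GFP only and 38 in double negative. The second, from 34004348 to 34005429, had 149, 86, 56 and 52 reads in the same order. The third, from 34006105 to 34006665, had 117 reads in double positive, 69 in mCherry only and 43 in double negative. The last 2 members had 72 and 75 reads in double positive against 35 and 38 in mCherry only, and no call elsewhere. No other shared region of height 10 or more lay in the span. The other groups of 5 were on chromosome 20 from 19082523 to 19180284 and on chromosome 5 from 32575631 to 32638023. Of the shared regions there that were not members, 5 of 5 and 1 of 2 had ratios above 1.

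Chromosome 4 had the largest share of gained regions. There 21.3% of double positive peaks (20.1 to 22.6) were gained, against 12.7% on chromosome 3 and 17.0% on chromosome 14, the lowest and the highest of the other chromosomes. The excess lay beyond 25 Mb on chromosome 4, where 633 of 2126 double positive peaks (29.8%, 27.9 to 31.8) were gained, while up to 25 Mb 12.5% were (11.2 to 14.0). Those gained peaks were as low as on the other chromosomes, with a median height of 4.41. Shared regions of height 10 or more numbered 308 there beside the 2126 double positive peaks, and 29808 beside 86507 on all other chromosomes. The gained share was larger among low peaks, and the part of peak height in the excess was not tested. Of 276 windows of 5 Mb, 6 of the 10 with the largest gained share were on chromosome 4, led by 35.7% from 45 to 50 Mb. The highest window elsewhere, with 30.0%, was from 0 to 5 Mb on chromosome 7.

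Lost regions showed no such concentration on chromosome 4. Beyond 25 Mb 41.0% of mCherry only peaks were lost (39.1 to 42.9), as were 43.1% up to 25 Mb and 43.4% on all other chromosomes. By chromosome the share ran from 39.7% on chromosome 3 to 46.9% on chromosome 9. With chromosome 4 beyond 25 Mb left out, 40.3% of peaks within 2 Mb of a chromosome end were lost (39.4 to 41.2), against 43.7% farther in. The gained shares, likewise without that part of chromosome 4, were 14.9% and 14.7% in the same order.

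Regions higher in double positive were least frequent on chromosomes 2 and 1, at 28 of 1333 and 27 of 1269 of the shared regions of height 10 or more. They were most frequent on chromosomes 24 and 20, at 49 of 946 (5.18%) and 67 of 1327 (5.05%). On chromosome 4 beyond 25 Mb, 5 of 308 such regions were higher in double positive and 2 in mCherry only. On all other chromosomes the counts were 991 and 696 of 29808 regions.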

How the data were processed

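ATAC-seq peak lists of 12 samples in 4 groups were analysed, with 3 samples per group and 1 pooled list per group, as the labels name the same list for each group's samples. The tools named in the submitters' processing notes are MACS2 2.1.0 and Bowtie2 2.2.1, and the build is danRer7. Steps not given in the sources used here include caller settings, read filters, Tn5 offsets and the manner of pooling. The deposited columns are a display score (not used further), a fold (a linear ratio), −log10 p and −log10 q at the summit, and the summit offset in bp.

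Reads at the summit were recovered as the whole number that gives the fold, with a pseudocount of 1, and the −log10 p under a Poisson tail. The largest misfit of −log10 p was 0.000382, and the next whole number missed by at least 0.00808. The model is inferred from the values. The number of reads limits precision, most of all for gained peaks, whose median was 16 reads. The recovery of reads, of gained and lost classes and of ratios was tested on simulated data, and overlap counts on a sample of the real peaks. The simulated reads followed the same model, so that test does not check the model. Coordinates are 1-based. Within a shared region the highest summit of each list was used. Python 3.11.15, numpy 2.4.6, scipy 1.17.1 and pandas 2.3.3 were used.

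Named regions are the 10 gained and 10 lost peaks of highest fold and the 10 shared regions at each end of the height ratio. Groups of regions and peaks with the most reads were chosen after their values were seen. The comparison, rules and alternatives were chosen with earlier results of these data known. The 2 or 3 peaks per list on chrM entered one alternative only. Gene names, start sites, markers and motifs were not used here, since the reference at hand belongs to another build.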

Additional observations from a re-analysis of the deposited data

How the results depend on the processing

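No paired analysis was possible because the 3 samples of a group stand in a single pooled list, which also kept replicates from being left out in turn. Over 37 recomputed values of 6 results, 14 stayed within 1.5 times (counts) or within the 95% counting interval of the reported one, 21 moved and 2 fell on the other side of 1. The gained and lost shares, 15.1% and 43.4%, became 11.1% and 41.0% with −log10 q of 5 or more in both lists, 26.2% and 27.6% with lists of equal length, 26.2% and 50.2% with reciprocal overlap of 50%, 14.1% and 42.1% with gaps of up to 200 bp counted as shared, and 1.55% and 5.61% for height 10 or more. The median height ratio, 0.972, became 0.976 with the deposited fold, 1.04 after centring, 1.02 selected on double positive height and 0.904 selected on mCherry only height. In the last 2 settings and on the fold scale, regions higher in double positive numbered 1796, 319 and 114, and those higher in mCherry only 60, 2677 and 166. The median width ratio, 0.918, became 0.933 with −log10 q of 5 or more, 0.911 with equal length and 0.958 at height 10 or more. Equal length and stricter overlap move the shares by construction, as does selection on 1 list. What lay behind the remaining changes was not tested. Adding chrM moved none of the 6 results.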
